A study of Capra hircus with 8 samples.

Results

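The genes described here encode the proteins of the spliceosome and of the heterogeneous nuclear ribonucleoproteins (hnRNPs), measured in goat (Capra hircus) embryos at the 8-cell stage. They were chosen by name from the messenger RNA table of the 8-cell embryos: every name that starts with SNRP, SF3A, SF3B, PRPF, LSM, SRSF or HNRNP. That gave 80 names. SNRPN was left out, and so was HNRNPF, a name that also stands in the deposited table of known long non-coding RNAs, so that 78 of the 22107 entries of the table remained. All 78 were found as protein-coding genes in a RefSeq gene table for goat.

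Embryos cloned by SCNT (somatic cell nuclear transfer: a body-cell nucleus put in place of the egg's own) were set against embryos made by in vitro fertilisation (IVF), with 2 libraries each. The labels give no breed, donor cell type or number of embryos per library. Whether the 2 libraries of a group came from different embryos is not stated, so the p-values measure only the spread between these samples, which may be technical. The 4-cell libraries, the lncRNA values and the lncRNA knockdown that the series' design text names were not analysed here.

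The spliceosome cuts introns out of new transcripts and joins the exons. Its core is a set of small nuclear ribonucleoproteins (snRNPs), each a short U-rich RNA held by a ring of Sm or LSM proteins with further proteins of its own: U1 finds the start of an intron, U2 the branch point near its end, and the U4/U6.U5 particle brings in the catalytic RNAs. SR proteins, named for their serine- and arginine-rich tails, bind exons and recruit the snRNPs, and hnRNP proteins coat new transcripts and often act against SR proteins at the same sites. Early embryos live on messenger RNA stored in the egg until their own genome is switched on, which in goats happens around the 8-cell stage, so a transcript seen here can be inherited or newly made. These sources, fewer cells and less RNA per cell cannot be told apart in these bulk values.

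The 78 genes fall into an Sm ring (7 genes), proteins particular to U1 (2), to U2 (11) and to U4/U6.U5 (5), the LSM2 to LSM8 ring of U6 (7), SR proteins (11), hnRNP proteins (19), other PRPF genes (8) and other LSM genes (6). The first 5 classes are called U snRNP proteins here and hold 32 genes. The names LSMEM1 and LSMEM2 start with LSM too, but belong to membrane proteins unrelated to splicing. LSMEM2 was listed at 0 in all 4 libraries and LSMEM1 stood between 0.946 and 2.71 FPKM (fragments per kilobase and per 1000000 fragments). A gene was tested if it reached 1 FPKM in at least 2 libraries. This held for 74 of the 78, and SF3A2, PRPF31, HNRNPLL and LSMEM2 were not tested.

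Expression of the tested members was well above that of most genes. Their median level was 33.1 and 34.1 FPKM in the SCNT libraries and 25.4 and 26.1 FPKM in the IVF libraries, against 7.58 and 9.34 FPKM (SCNT) and 5.65 and 5.73 FPKM (IVF) over all 10303 tested genes. Of the 78, 45 stood at 10 FPKM or more in every library. Together they held 1.06% and 1.09% of the summed FPKM in SCNT and 0.919% and 0.748% in IVF. The libraries rest on 27499371 to 30345379 reads in all, and each member's value above 0 could be turned back into whole reads. The tested member with the fewest reads, LSM6, had 79 and 46 in SCNT and 100 and 77 in IVF.

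**Figure D1:**
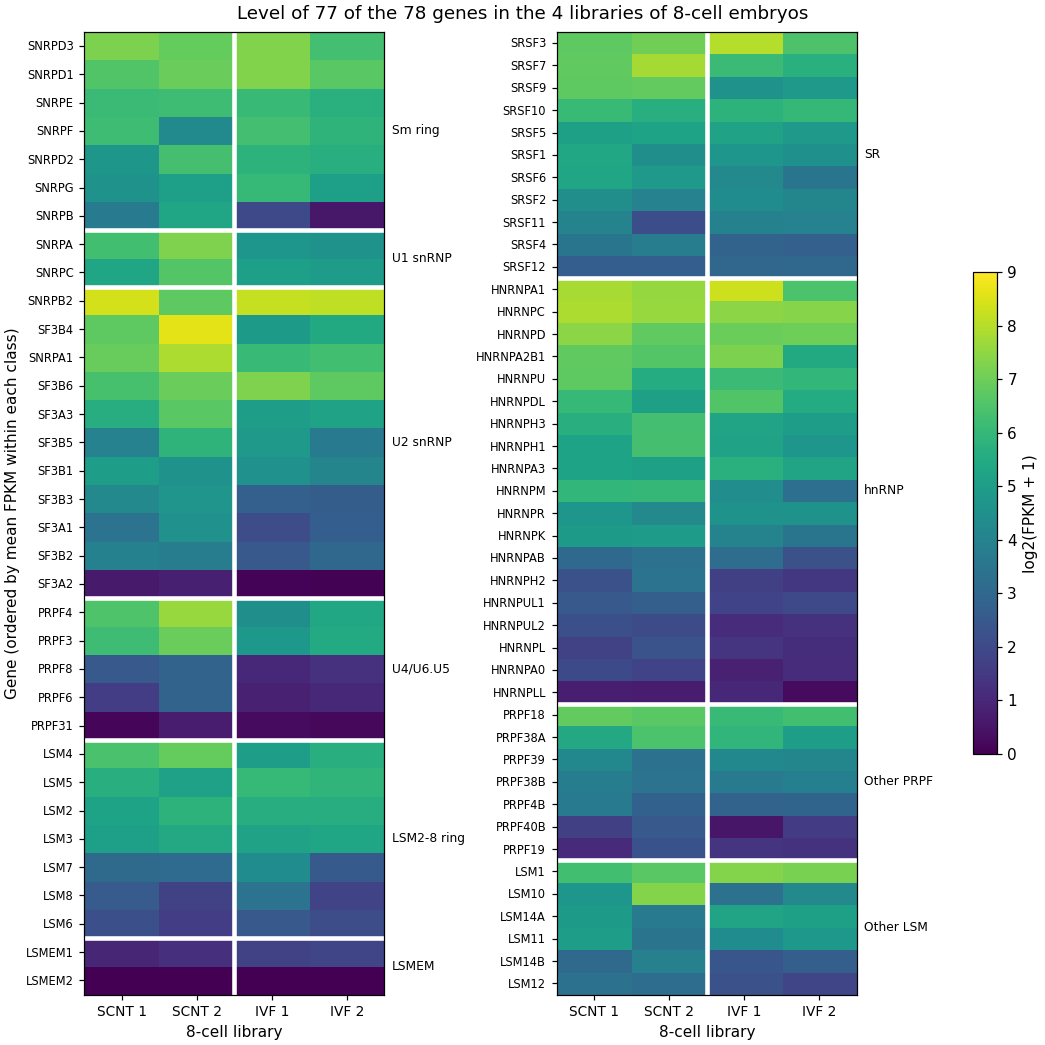
Level of 77 of the 78 genes (rows, by class, highest mean first) in the 2 SCNT and 2 IVF libraries of 8-cell embryos (columns), as log2(FPKM + 1) in colour. SNRPB2, SF3B4, HNRNPA1 and HNRNPC are among the brightest rows, and SF3A2, PRPF31 and LSMEM2 are near 0 in every library.

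SCNT replicate 2 stood apart from the other 3 libraries. Across the 74 tested members, which are not independent replicates, it correlated with the IVF libraries at r = 0.75 and 0.78, while SCNT replicate 1 did so at 0.90 and 0.92. The 2 SCNT libraries correlated at 0.87 and the 2 IVF libraries at 0.95. The gap between replicates exceeded 1 on the log2 scale for 21 members in SCNT and 11 in IVF, which is 28.4% and 14.9% of them, against 26.8% and 7.09% of all tested genes. Beside this, the summed level of 13 oocyte and early embryo markers was 8947 and 15588 FPKM in SCNT against 9167 and 10584 in IVF, with all 13 at 1 FPKM or more in some library. BTG4 (3330 and 4246 FPKM in SCNT against 5070 and 6040 in IVF) and KPNA7 made up most of that sum. Of the 13, 10 had both SCNT values above both IVF values, which is 76.9%, against 46.9% of all tested genes. The median difference was 0.87 on the log2 scale, and 0.39 over all tested genes. ZAR1L and KHDC3L rose in SCNT, which is 15.4%, where 3.02% of all tested genes rose. The summed level of 12 fibroblast markers was 71.5 and 77.6 FPKM in SCNT against 127 and 113 in IVF, and most of it was DCN (33.9 and 39.5 FPKM in SCNT against 94.3 and 85.5 in IVF). FAP was also lower in both SCNT libraries, at 2.06 and 3.46 FPKM in SCNT against 4.93 and 5.79 in IVF. Other markers of that list ran the other way: TAGLN rose (4.85 and 4.94 FPKM in SCNT against 0.659 and 0.389 in IVF). TAGLN met the level for testing only through the SCNT libraries, which favours a call in that direction. COL1A2 and COL3A1 were higher in both SCNT libraries without passing. COL1A1, below the level for testing, was higher too, at 0.730 and 0.993 FPKM in SCNT against 0.227 and 0.505 in IVF. Of the 12, 8 reached 1 FPKM in some library and none was at 0 throughout; the median of the 8 tested was 0.01. The summed level of 9 cumulus and granulosa markers was 21.2 and 36.0 FPKM in SCNT against 42.0 and 51.2 in IVF, with AMH and FSHR at 0. Only 3 of the 9 reached 1 FPKM in some library, and most of the sum was HAS2 and TNFAIP6. HAS2 had 17.9 and 18.1 FPKM in SCNT against 20.6 and 29.4 in IVF. TNFAIP6 had 1.77 and 14.3 FPKM in SCNT against 19.5 and 19.8 in IVF. INHBA and FST, under 1 FPKM throughout, were above 0 only in SCNT. The part of these levels in the results below was not tested.

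The members as a whole kept close to the rest in the comparison of SCNT with IVF embryos. Of 74 tested members, 3 rose, 0 fell and 71 did not pass (limma on log2(FPKM + 1), p adjusted over all 10303 genes). Over all tested genes 3.86% passed, 3.02% higher and 0.844% lower in SCNT. The median log2 difference, SCNT minus IVF, was 0.36 over the members and 0.39 over all genes. The values of the groups did not overlap for 35 members with SCNT higher (47.3%) and for 7 with SCNT lower (9.46%), where the shares over all genes were 46.9% and 17.1%. LSMEM1, which is unrelated to splicing, counts among the 74 tested members and among the 7 with SCNT lower. At an unadjusted p under 0.05 there were 22 members (29.7%), and 31.1% of all genes.

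The class medians were spread on either side of this. Those of the U1, U2 and U4/U6.U5 genes were higher in SCNT embryos, with log2 differences of 1.52, 1.06 and 1.48, while the medians of the Sm ring and of the LSM2 to LSM8 ring were −0.18 and −0.34. The Sm ring median was above 0 in 3 of the 4 fits with a library left out (0.055 without SCNT replicate 1, 0.11 without SCNT replicate 2 and 0.060 without IVF replicate 1), and the LSM ring median was below 0 in all 12 other settings. Joined after their values were seen, the U1, U2 and U4/U6.U5 classes had 14 of 16 tested members above the median of all genes. In each of the 12 other settings, which include leaving out each library in turn, at least 12 of 16 were above it. The classes were joined on these values and the settings refit the same libraries, so neither count is independent support. The median of these 16 exceeded that of all genes by 0.88, and by 0.55 to 1.22 in the other settings. It was 0.55 above without SCNT replicate 2 and 1.22 above without SCNT replicate 1. For the Sm ring the distance to all genes was −0.57 (−0.68 to −0.21 in the other settings) and for the LSM ring −0.73 (−1.00 to −0.47). No test of the difference between classes was made. Feature lengths also differ: the Sm and LSM rings have recovered lengths of 262 to 1541 bases, and the 2577 tested genes of up to 1588 bases had a median difference of 0.33. The 24 members of such length had a median of −0.05. They include every gene of both rings, so this median is not separate from the ring medians. The part of length in the class medians was not tested.

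**Figure D2:**
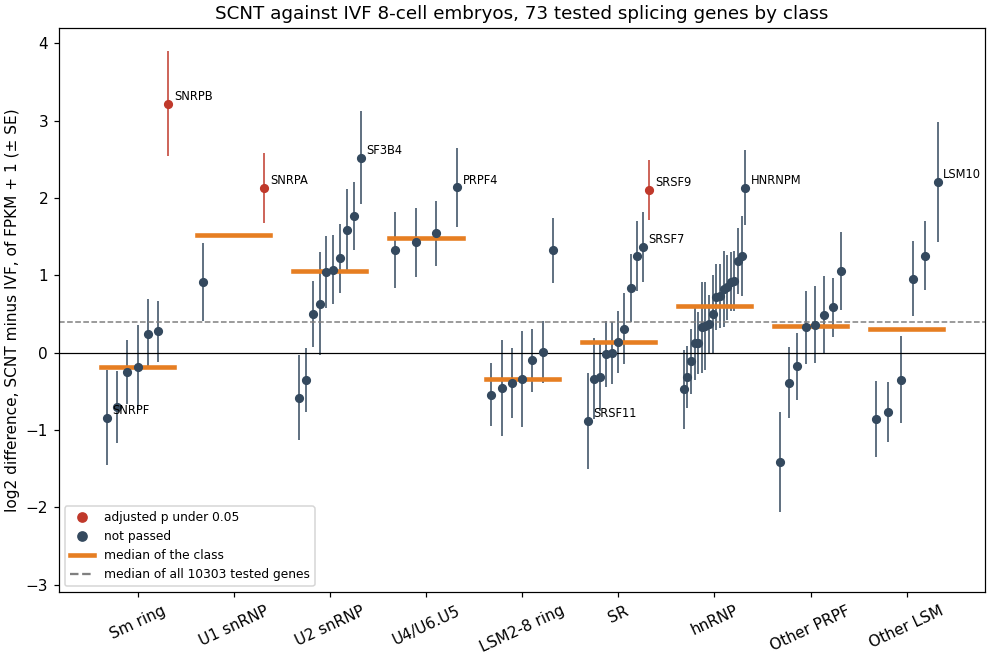
Log2 difference, SCNT minus IVF 8-cell embryos, of FPKM + 1 with its standard error (limma, 2 libraries per group) for the 73 tested genes of 9 classes; red points passed, orange bars are class medians and the dashed line is the median of all 10303 tested genes (0.39). The U1, U2 and U4/U6.U5 medians lie above the dashed line and those of the 2 rings below 0.

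The Sm ring is made of SNRPB, SNRPD1, SNRPD2, SNRPD3, SNRPE, SNRPF and SNRPG, which assemble in equal numbers around U1, U2, U4 and U5 RNA. SNRPB, whose products SmB and SmB′ are the largest proteins of the ring, was the one that rose. It stood at 11.9 and 38.6 FPKM in SCNT and at 2.95 and 0.499 FPKM in IVF. Both SCNT values lay well above both IVF values, and the replicates of each group differed several-fold. The log2 difference was 3.22 ± 0.68 (SE, n = 2 per group, limma adjusted p = 0.0445). The reads behind these values were 381 and 1236 in SCNT and 91 and 17 in IVF. SNRPN, left out here, encodes a near-identical protein, and no source used here says how reads matching both genes were counted.

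None of the other 6 Sm genes passed. SNRPD3 stood at 149 and 115 FPKM in SCNT against 158 and 78.2 in IVF, and SNRPD1 at 94.1 and 121 FPKM in SCNT against 158 and 102 in IVF. The groups overlapped in both genes. SNRPE had 69.8 and 73.3 FPKM in SCNT against 66.9 and 51.9 in IVF (log2 difference 0.27 ± 0.39). SNRPF split the SCNT pair, with 72.9 and 18.8 FPKM in SCNT against 79.2 and 57.3 in IVF. SNRPD2 split it the other way, at 26.2 and 79.7 FPKM in SCNT against 56.0 and 48.6 FPKM in IVF. SNRPG, with 23.2 and 33.2 FPKM in SCNT against 63.9 and 32.7 in IVF, overlapped between groups. Although the 7 proteins form 1 ring, the SNRPB transcript was at 0.127 and 0.319 of the SNRPD1 level in SCNT and at 0.0187 and 0.00487 of it in IVF. All 7 were lower in IVF replicate 2 than in IVF replicate 1, as were 44.1% of all tested genes.

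In U1, SNRPA, the U1 protein that holds a loop of the U1 RNA, rose. It had 77.1 and 153 FPKM in SCNT against 25.3 and 23.1 in IVF. The 2 IVF libraries were close and both SCNT libraries lay at least 3-fold above them. The log2 difference was 2.12 ± 0.45 (SE, n = 2 per group, limma adjusted p = 0.0459). SNRPC, which helps U1 grip the start of the intron, had 38.1 and 95.8 FPKM in SCNT against 32.9 and 30.4 in IVF, a log2 difference of 0.92 ± 0.50 that did not pass (adjusted p = 0.243). Within a library the SNRPA level was 2.02 and 1.60 times that of SNRPC in SCNT and 0.769 and 0.759 times in IVF.

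U2 carries SNRPA1 and SNRPB2, which bind its RNA, and the SF3A and SF3B complexes, which hold the branch point. None of its 10 tested genes passed, and 8 had a positive difference. The largest was that of SF3B4, with 108 and 396 FPKM in SCNT against 29.1 and 42.7 in IVF (2.52 ± 0.60, adjusted p = 0.0545). SF3B3, a large scaffold of SF3B, had 17.9 and 24.7 FPKM in SCNT against 5.74 and 5.26 in IVF (1.76 ± 0.44, adjusted p = 0.0579). The SCNT values of both lay above the IVF values. SF3A1 had 9.82 and 22.7 FPKM in SCNT against 3.38 and 5.50 in IVF, SF3A3 48.3 and 103 FPKM in SCNT against 31.9 and 35.8 in IVF, and SF3B2 14.4 and 12.6 FPKM in SCNT against 4.76 and 7.21 in IVF. SF3B1, which contacts the branch point itself, had 31.8 and 23.6 FPKM in SCNT against 22.6 and 16.2 in IVF (0.50 ± 0.43). These 4 also showed no overlap between groups.

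The 2 U2 genes with a negative difference were SNRPB2 and SF3B6. SF3B6, the subunit that touches the branch point adenosine, had 83.3 and 121 FPKM in SCNT against 153 and 108 in IVF. SNRPB2 was the most abundant U snRNP gene, with 341 and 107 FPKM in SCNT against 296 and 279 in IVF. SCNT replicate 1 was the highest and SCNT replicate 2 the lowest of the 4. Its partner on the U2 RNA, SNRPA1, went the other way within the SCNT pair, with 119 and 235 FPKM in SCNT against 66.3 and 76.5 in IVF (1.22 ± 0.45, adjusted p = 0.110). The ratio of SNRPA1 to SNRPB2 was therefore 0.348 and 2.20 in SCNT and 0.224 and 0.274 in IVF. SF3B5, a small SF3B subunit, had 15.0 and 56.2 FPKM in SCNT against 28.4 and 11.9 in IVF, with wide gaps in both pairs. SF3A2 was below the level for testing, at 0.574 and 0.714 FPKM in SCNT against 0.0635 and 0.0384 in IVF. Those values rest on 28 and 35 reads in SCNT and 3 and 2 reads in IVF.

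The U4/U6.U5 class, which holds only names starting with PRPF, does not stand for the whole particle. All 4 tested genes were higher in both SCNT libraries than in both IVF libraries, and none passed. Over all tested genes 46.9% were higher in this way. PRPF4, a U4/U6 protein, had 90.1 and 197 FPKM in SCNT against 21.4 and 40.6 in IVF (2.14 ± 0.51, adjusted p = 0.0550). PRPF3, its binding partner, had 73.5 and 121 FPKM in SCNT against 27.1 and 44.0 in IVF (1.42 ± 0.45, adjusted p = 0.0830). PRPF8, the large U5 protein around the catalytic centre, had 4.67 and 6.37 FPKM in SCNT against 1.05 and 1.41 in IVF (1.54 ± 0.42, adjusted p = 0.0656). PRPF6, which bridges U5 and U4/U6, had 2.13 and 6.30 FPKM in SCNT against 0.780 and 1.03 in IVF (1.33 ± 0.49, adjusted p = 0.111). The transcripts of the 2 U4/U6 proteins were thus an order of magnitude above those of PRPF8 and PRPF6 in each library. PRPF31, which also bridges U5 and U4/U6, was barely present, at 0.111 and 0.624 FPKM in SCNT against 0.209 and 0.138 in IVF, and was not tested.

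In the LSM ring of U6, none of 7 genes passed and 5 had a negative difference. A positive difference was found in 2 (28.6%), against 65.8% of all tested genes. LSM4 was the exception in size, with 84.8 and 117 FPKM in SCNT against 31.5 and 48.5 in IVF (1.32 ± 0.42, adjusted p = 0.0845). Its groups did not overlap. LSM5 had 50.3 and 34.4 FPKM in SCNT against 64.8 and 57.9 in IVF, so that both SCNT values lay below both IVF values (−0.55 ± 0.41, adjusted p = 0.387). LSM2, with 36.2 and 55.2 FPKM in SCNT against 48.3 and 47.7 in IVF, overlapped. So did LSM3, with 32.7 and 42.2 FPKM in SCNT against 35.0 and 39.3 in IVF. LSM6, LSM7 and LSM8 were the least abundant of the ring, between 2.11 and 20.0 FPKM over the 4 libraries. The ratio of LSM4 to LSM5 was 1.69 and 3.39 in SCNT and 0.487 and 0.838 in IVF.

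**Figure D3:**
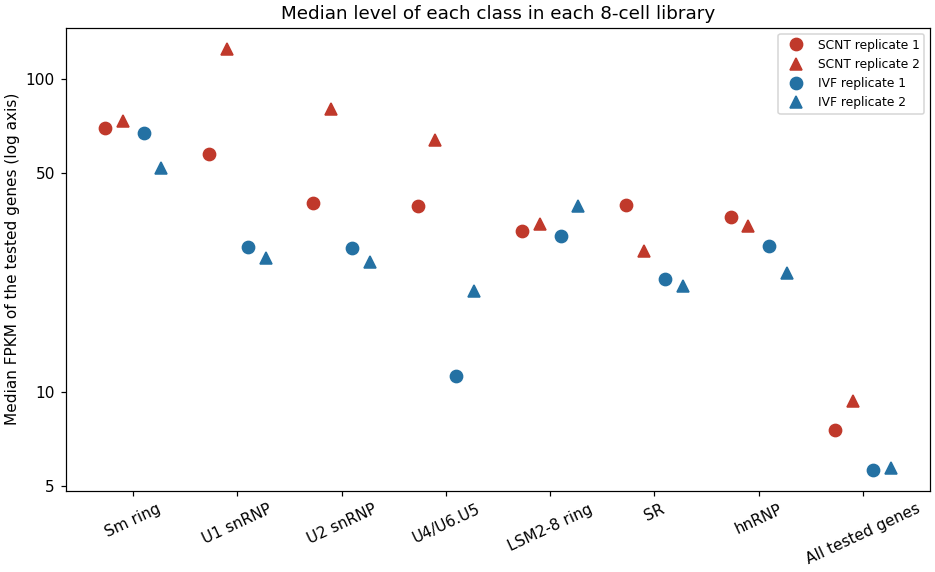
Median FPKM of the tested genes of each class in each 8-cell library (log axis), SCNT in red and IVF in blue, with circles for replicate 1 and triangles for replicate 2. SCNT replicate 2 is highest in the U1, U2 and U4/U6.U5 classes (125, 79.8 and 63.8 FPKM). It is also highest in the Sm ring (73.3 FPKM) and over all tested genes (9.34 FPKM). The SR and hnRNP medians are highest in SCNT replicate 1 (39.6 and 36.1 FPKM) and that of the LSM ring in IVF replicate 2 (39.3 FPKM).

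Of the 11 SR genes tested, SRSF9 rose (9.09%, where 3.02% of all tested genes rose) and the other 10 did not pass. The class median was 0.14 on the log2 scale, 0.26 below that of all genes. SRSF9, one of the shorter SR proteins, had 108 and 114 FPKM in SCNT against 22.9 and 27.4 in IVF. Replicates agreed closely in both groups, and the SCNT mean was 4.43 times the IVF mean. The log2 difference was 2.11 ± 0.39 (SE, n = 2 per group, limma adjusted p = 0.0380). SRSF7, an SR protein with a zinc knuckle, had 111 and 219 FPKM in SCNT against 68.9 and 51.7 in IVF (1.37 ± 0.45, adjusted p = 0.0915). SRSF6 had 39.6 and 28.3 FPKM in SCNT against 17.7 and 10.3 in IVF (1.25 ± 0.45, adjusted p = 0.110). In SRSF4, which like SRSF6 has a long tail, the values were 10.3 and 13.2 FPKM in SCNT against 6.35 and 5.83 in IVF (0.84 ± 0.44). The groups did not overlap in these 3. With SRSF9, 4 of the 11 SR genes (36.4%) had both SCNT values above both IVF values, against 46.9% of all tested genes.

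The remaining SR genes lay close to 0 or split a pair of replicates. SRSF3, the smallest SR protein, had the highest mean level of the class, with 108 and 131 FPKM in SCNT against 253 and 89.7 in IVF. SRSF1, a founding member of the family, had 41.0 and 21.1 FPKM in SCNT against 25.4 and 21.9 in IVF. SRSF2, which binds exon enhancers, had 21.0 and 15.1 FPKM in SCNT against 19.6 and 16.6 in IVF (−0.02 ± 0.43). SRSF10, which turns into a repressor of splicing when dephosphorylated, had 68.3 and 50.7 FPKM in SCNT against 56.0 and 62.3 in IVF (−0.01 ± 0.40), and SRSF5 had 33.5 and 36.2 FPKM in SCNT against 35.7 and 28.0 in IVF (0.14 ± 0.40). The groups overlapped in all 5. In SRSF11 a single library stood apart, with 15.1 and 3.45 FPKM in SCNT against 14.4 and 14.9 in IVF. SRSF12, a relative of SRSF10, was the SR gene with both SCNT values below both IVF values, at 5.42 and 5.52 FPKM in SCNT against 6.91 and 7.19 in IVF (−0.31 ± 0.44, adjusted p = 0.657).

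No hnRNP gene passed among 18 tested. Their median difference was 0.61, and 15 were above 0 (83.3%, against 65.8% of all tested genes), 5 of which were below 0 after median centring. Both SCNT values exceeded both IVF values for 10 of them (55.6%; 46.9% over all genes). HNRNPM, a splicing regulator of many exons, came nearest, with 61.0 and 63.3 FPKM in SCNT against 20.5 and 8.65 in IVF (2.13 ± 0.48, adjusted p = 0.0501). The SCNT pair was close and lay about 3-fold or more above the IVF pair. HNRNPK, a poly(C)-binding protein, had 28.6 and 30.7 FPKM in SCNT against 15.1 and 10.2 in IVF (1.19 ± 0.43, adjusted p = 0.107). HNRNPH2 had 3.71 and 9.85 FPKM in SCNT against 2.26 and 1.78 in IVF (1.25 ± 0.52), and HNRNPUL2 had 3.58 and 3.20 FPKM in SCNT against 1.20 and 1.41 in IVF (0.93 ± 0.39). For the H proteins, which bind runs of G, HNRNPH1 and HNRNPH3 also had non-overlapping groups, with HNRNPH1 at 35.9 and 79.8 FPKM in SCNT against 35.3 and 25.2 in IVF and HNRNPH3 at 50.6 and 77.7 FPKM in SCNT against 37.7 and 31.5 in IVF.

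The most abundant hnRNP genes did not pass either. HNRNPC, which binds U-rich stretches, had 239 and 193 FPKM in SCNT against 170.2 and 163 in IVF (0.37 ± 0.38, adjusted p = 0.538). HNRNPD, also known as AUF1, a factor of messenger RNA decay, had 172 and 111 FPKM in SCNT against 124 and 129 in IVF, and HNRNPU, a nuclear scaffold protein, 107 and 47.1 FPKM in SCNT against 69.6 and 61.5 in IVF. The groups overlapped in these last 2.

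HNRNPA1 and HNRNPA2B1, the classic opponents of SR proteins, varied most within IVF. HNRNPA1 had 228 and 190.3 FPKM in SCNT against 318 and 86.2 in IVF, and HNRNPA2B1 had 110.2 and 96.2 FPKM in SCNT against 149 and 43.3 in IVF. In both genes the 2 IVF libraries were the highest and the lowest of the 4. Their ratio within a library hardly changed: HNRNPA1 was at 2.07 and 1.98 times the level of HNRNPA2B1 in SCNT and at 2.13 and 1.99 times in IVF. HNRNPDL followed the same order within IVF, with 63.9 and 33.9 FPKM in SCNT against 94.2 and 45.1 in IVF. Of the 18 tested hnRNP genes, 14 (77.8%) were lower in IVF replicate 2 than in IVF replicate 1, against 44.1% of all tested genes. HNRNPA3 was the hnRNP gene with both SCNT values below both IVF values, at 36.4 and 33.8 FPKM in SCNT against 51.3 and 37.5 in IVF (−0.31 ± 0.40, adjusted p = 0.627). HNRNPA1 and the small Sm and LSM genes are known in mammals for processed gene copies elsewhere in the genome, and no source used here says how reads shared with such copies were counted.

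**Figure D4:**
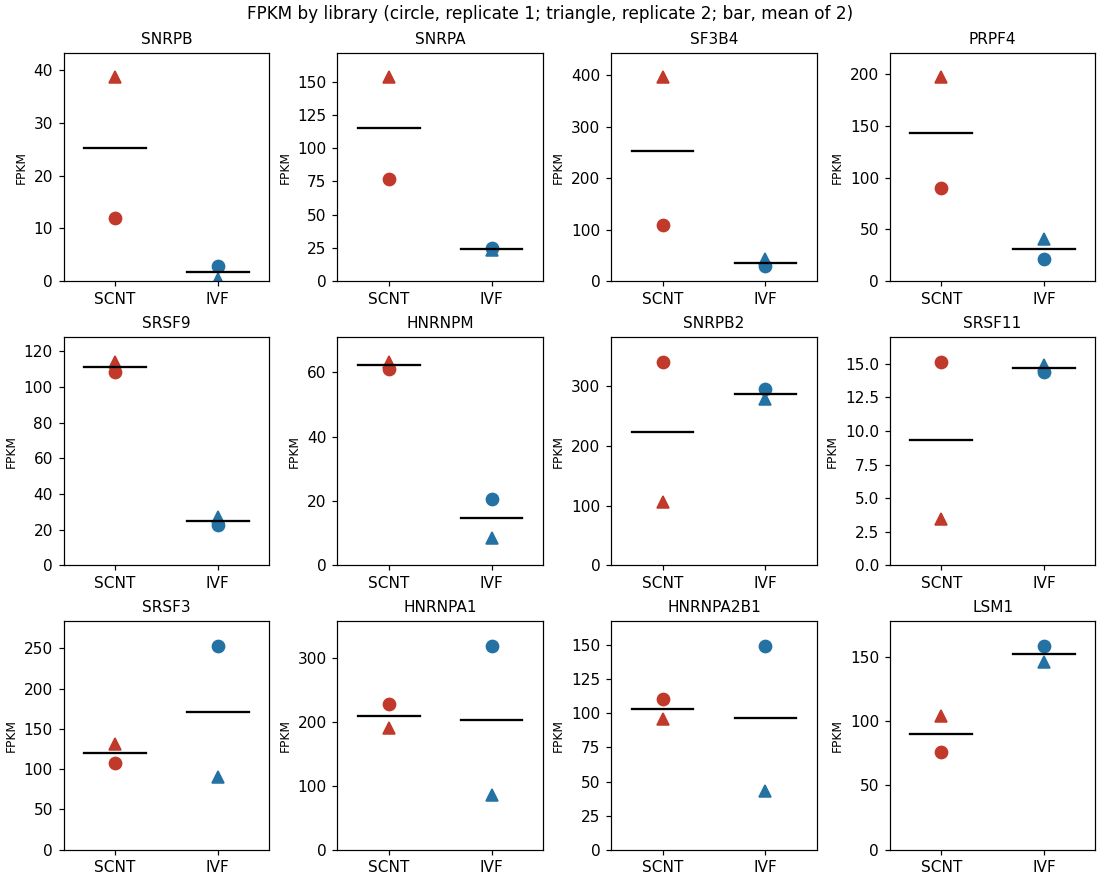
FPKM of 12 members in each 8-cell library, SCNT in red and IVF in blue, with circles for replicate 1, triangles for replicate 2 and bars for the mean of 2 libraries; each panel has its own axis from 0. SRSF9 and HNRNPM show tight SCNT pairs above IVF, SNRPB2 and SRSF11 a low SCNT replicate 2, and SRSF3, HNRNPA1 and HNRNPA2B1 wide IVF pairs.

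Outside the particles, none of the 8 other PRPF genes and 6 other LSM genes passed. PRPF18, which acts in the second step of splicing, had 114 and 103 FPKM in SCNT against 66.6 and 77.3 in IVF (0.59 ± 0.38, adjusted p = 0.320). PRPF40B, at 2.24 and 4.74 FPKM in SCNT against 0.454 and 1.96 in IVF, was among the least abundant. PRPF19, a ubiquitin ligase of the active spliceosome, had 1.10 and 3.80 FPKM in SCNT against 1.57 and 1.49 in IVF.

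Several LSM proteins work outside splicing. LSM1, which replaces LSM8 in the cytoplasmic ring that promotes messenger RNA decay, had 76.3 and 104 FPKM in SCNT against 159 and 146 in IVF. Both SCNT values lay below both IVF values (−0.77 ± 0.39, adjusted p = 0.213). LSM14A, a protein of cytoplasmic RNA granules, also lay lower in both SCNT libraries, at 29.1 and 12.2 FPKM against 37.1 and 33.3 FPKM in IVF (−0.86 ± 0.49, adjusted p = 0.263). In its relative LSM14B the order was the opposite, with 7.65 and 14.2 FPKM in SCNT against 4.36 and 5.55 in IVF (0.95 ± 0.48). LSM10 and LSM11 are proteins of the U7 particle, which trims histone messenger RNAs. LSM10 had 25.2 and 160.0 FPKM in SCNT against 9.53 and 17.9 in IVF (2.20 ± 0.78, adjusted p = 0.104), while LSM11 had 31.2 and 9.99 FPKM in SCNT against 19.5 and 26.9 in IVF. SCNT replicate 2 was the highest library for LSM10 and the lowest for LSM11.

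Other genes of the pathway, from 5 lists that do not use these name prefixes, gave a similar picture. Of 121 tested, 4 rose and 0 fell, which is 3.31% rising, near the 3.02% of all tested genes. The median difference was 0.49 (0.39 over all genes). The 4 are given as values and do not set these lists apart. Among 53 further snRNP and spliceosome genes, 2 rose: PUF60, which helps U2 find the intron end, with 10.3 and 25.7 FPKM in SCNT against 1.70 and 2.40 in IVF (2.52 ± 0.54, limma adjusted p = 0.0459), and PPIL1, a peptidyl-prolyl isomerase of the spliceosome, with 39.1 and 80.5 FPKM in SCNT against 9.53 and 12.8 in IVF (2.24 ± 0.48, adjusted p = 0.0463). Among 30 other splicing regulators PTBP1, the polypyrimidine tract-binding protein also called hnRNP I, rose, with 64.5 and 106 FPKM in SCNT against 10.9 and 17.5 in IVF (2.50 ± 0.45, adjusted p = 0.0366). Among 15 genes of snRNP assembly WDR77, a partner of the methyltransferase PRMT5 that prepares Sm proteins for the ring, rose, with 4.06 and 8.20 FPKM in SCNT against 0.425 and 0.126 in IVF (2.43 ± 0.44, adjusted p = 0.0366). Both IVF values of WDR77 were under 1 FPKM, so it met the level for testing only through the SCNT libraries. This favours a call in that direction, and the call of WDR77 is not independent support. None passed among 16 genes of SR-related proteins and their kinases and 7 of the exon junction complex. In all 4 risen genes SCNT replicate 2 was the highest library.

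The 3 calls among the members depended on the setting. SNRPB passed in 8 of 12 other settings and SNRPA and SRSF9 in 6 each. Some of these settings leave a single library in a group, whose spread is then unknown. The setting with a replicate block assumes a pairing of libraries that the labels do not state. With this block the limma adjusted p was 0.00846 for SNRPB, 0.0143 for SNRPA and 0.0123 for SRSF9. It was highest with no filter on low values, at 0.242 for each of the 3. Without SCNT replicate 2 it was 0.121 for SNRPB, 0.0746 for SNRPA and 0.0620 for SRSF9. Without IVF replicate 2 it was 0.104 for SNRPB, 0.150 for SNRPA and 0.117 for SRSF9, and without IVF replicate 1 it was 0.160 for SNRPA and 0.228 for SRSF9. After quantile normalization it was 0.0607 for SNRPB, 0.0670 for SNRPA and 0.0507 for SRSF9, and after median centring 0.0714 for SNRPA and 0.0644 for SRSF9. The log2 differences were at least 2.41 for SNRPB, 1.63 for SNRPA and 1.61 for SRSF9 in the 12 other settings. When the recovered reads were tested in place of FPKM (voom in limma), 7 members passed, where 5.99% of all genes did: the same 3 and SF3B4, SF3B3, PRPF4 and HNRNPM, all higher in SCNT.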

How the data were processed

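Whole embryos went from lysis straight into Smart-seq2 cDNA synthesis on polyA RNA, per the labels' protocols. The submitters' processing notes list fastp, HTSeq and HISAT2 2.2.1, with no role given. No source used here gives the genome build, annotation or scaling total, so no coordinates are printed, and no gene sequences were used here. The authors deposited FPKM values per gene.

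The 4 libraries of 8-cell embryos were grouped by their titles. Genes that reached 1 FPKM in 2 or more libraries were fitted as log2(FPKM + 1) with lmFit and eBayes with trend (limma 3.58.1, R 4.3.3). P-values are two-sided and adjusted by Benjamini-Hochberg over all 10303 genes, with a threshold of 0.05. Log2 differences are on this scale, which understates the change of low genes. The fit was tried on simulated data in which every gene had the same spread in both groups. In these libraries the median replicate gap over all tested genes was 0.63 in SCNT and 0.30 in IVF (log2 scale). The trial therefore does not cover the unequal spread of these data. An exact permutation of 2 against 2 libraries cannot go below p = 0.333 and was not used.

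Reads were recovered from FPKM. With totals of 28397783 and 28519065 reads (SCNT) and 27499371 and 30345379 reads (IVF), 20287 of 20289 entries above 0 came to whole reads within 0.0001 read, all 77 members above 0 among them. The smallest length that does so was taken, so reads and length may both be a whole multiple larger. PCR copies cannot be told apart, so reads give counting error only.

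Named members are those that passed; in the U snRNP, SR and hnRNP groups the 4 most abundant and the 4 with the largest difference in each direction; the 2 most abundant other PRPF and other LSM genes; and further members within their class. The values of 1 member are not reported here; it stays in all counts and medians. Of the further splicing lists, genes that passed and the most abundant of each are named. The members, classes and lists were chosen with earlier results of these data known. The ratios between genes, the joined U1, U2 and U4/U6.U5 classes and the voom test were chosen after seeing the values.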

Additional observations from a re-analysis of the deposited data

How the results depend on the processing

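Numbers of calls depended on the setting. The members called (of all genes called) were 3 (398) as reported, 3 (419) with a pseudocount of 0.1 FPKM, 5 (578) with 0.5 FPKM, 0 (0) with no filter on low values, 8 (1327) after rescaling to 1000000, 1 (396) after median centring, 0 (271) after quantile normalization and 7 (617) with voom. They ran from 0 (46) without SCNT replicate 2 to 26 (3834) without SCNT replicate 1, and were 1 (173) and 1 (257) without IVF replicates 1 and 2. In the limma fits with no member called, the members with an unadjusted p under 0.05 were 18 with no filter (23.4%; 18.0% of all genes), 14 after quantile normalization (18.9%; 24.8%) and 23 without SCNT replicate 2 (31.1%; 26.8%). After median centring 158 of the 396 genes called were higher in SCNT, and after quantile normalization 121 of 271, against 311 of 398 as reported. The labels do not say that replicate numbers pair libraries. The replicate differences of the groups correlated at 0.12 across all tested genes, and with a replicate block 12 (1924) passed.

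The members' median of 0.36 was 0.40 with a pseudocount of 0.1 FPKM, 0.41 with voom, −0.13 after centring, 0.18 after quantile normalization and 0.18 to 0.61 with 1 library left out. The U snRNP median of 0.56 was 0.072 after centring and 0.18 to 0.79 with 1 library left out, and 0.36 over all genes of the 5 prefixes. The SR median of 0.14 was −0.36 after centring, −0.10 after quantile normalization and −0.15 to 0.41 with 1 library left out. The hnRNP median of 0.61 was 0.11, 0.29 and 0.46 to 0.85 in the same settings. The median of all genes was −0.10 after centring and −0.01 after quantile normalization. Over the 12 settings the distance to all genes ran from 0.06 to 0.46 for hnRNP genes, from −0.66 to 0.01 for SR genes and from −0.22 to 0.43 for U snRNP genes. The causes were not tested.

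Sign changes occurred only in members that did not pass in the fit reported above, though some of these passed in another setting. After centring 13 of 74 turned negative: HNRNPA1 (−0.17), HNRNPA2B1 (−0.15), HNRNPC (−0.13), HNRNPD (−0.37), HNRNPU (−0.37), SNRPD3 (−0.26), SNRPE (−0.22), LSM3 (−0.49), SRSF1 (−0.18), SRSF5 (−0.36), PRPF4B (−0.13), PRPF19 (−0.17) and PRPF38A (−0.0049). After quantile normalization 5 did, LSM3, SRSF5, HNRNPU, PRPF4B and PRPF19. With 1 library left out 28 of 74 changed sign in some fit. The range was −0.61 to 1.26 for HNRNPA1, −0.53 to 1.23 for HNRNPA2B1, −0.19 to 0.43 for HNRNPD, −1.00 to 0.048 for HNRNPDL, −0.36 to 0.13 for HNRNPR, −0.46 to 0.70 for HNRNPU, −1.42 to 0.25 for SNRPB2, −0.56 to 0.060 for SNRPD1, −0.97 to 0.60 for SNRPD2, −0.26 to 0.74 for SNRPD3, −1.79 to 0.11 for SNRPF, −0.28 to 1.55 for SF3B5, −0.15 to 0.77 for SRSF1, −0.25 to 0.21 for SRSF2, −1.08 to 0.41 for SRSF3, −0.22 to 0.21 for SRSF10, −1.81 to 0.045 for SRSF11, −1.12 to 0.43 for LSM11 and −0.27 to 0.92 for PRPF19. The others were SRSF5, LSM2, LSM3, LSM7, LSM8, PRPF4B, PRPF38A, PRPF38B and PRPF39.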

Other observations

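The 2 names left out of the set had both SCNT values above both IVF values. HNRNPF, an H-type hnRNP whose name also stands in the deposited table of known lncRNAs, stood at 177 and 247 FPKM in SCNT against 84.6 and 45.9 in IVF (log2 difference 1.73 ± 0.44, limma adjusted p = 0.0603). SNRPN, the imprinted relative of SNRPB, stood at 4.65 and 11.6 FPKM in SCNT against 2.56 and 3.76 in IVF (1.04 ± 0.53, adjusted p = 0.216).

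The most abundant gene of the further splicing lists was MAGOH, a core protein of the exon junction complex, with 1006 and 790 FPKM in SCNT against 879 and 761 in IVF (0.12 ± 0.38). CWC15, a component of the active spliceosome, had 377 and 237 FPKM in SCNT against 757 and 624 in IVF, both SCNT values being below both IVF values (−1.20 ± 0.41, adjusted p = 0.0973). PCBP1, a poly(C)-binding protein, had 308 and 248 FPKM in SCNT against 394 and 319 in IVF (−0.36 ± 0.38). PHAX, the export adaptor of snRNAs, had 137 and 40.2 FPKM in SCNT against 138 and 142 in IVF, with SCNT replicate 2 apart from the other 3 libraries. DYRK1A, a kinase of SR proteins, had 66.7 and 42.2 FPKM in SCNT against 95.8 and 93.6 in IVF (−0.82 ± 0.41, adjusted p = 0.208).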
